A study of Mus musculus with 12 samples.

Results

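Vitronectin, the genes of fibrin formation and breakdown, and the vitronectin receptor subunits were followed as a set of 9 genes among the 55414 genes of a whole-lung RNA-seq table. The 9 genes were taken by name as a functional set, with earlier results of these data known, and all were found in the table. They are Vtn (vitronectin), Plat (tissue plasminogen activator), Plau (urokinase), Plaur (the urokinase receptor), F3 (tissue factor), Thbd (thrombomodulin), Tfpi (tissue factor pathway inhibitor) and the integrin subunits Itgav and Itgb3. Each was at 1 TPM or more in all 12 lungs, so none entered the tests through a single genotype. TPM is a transcript level corrected for transcript length and for the size of the library.

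The 12 lungs came from mice on a C57BL/6J background, 6 labelled IL-10 B-WT and 6 labelled IL-10 B-KO (the knockouts). In the IL-10 B-KO mice a floxed Il10 gene (Il10 flox/flox) was deleted by mb1-Cre, which acts from the early B cell stages onwards, so that B-lineage cells lack the cytokine IL-10. The sources used here do not state which alleles the IL-10 B-WT controls carried, nor the age of the mice. Mice of both groups received 50 µg of lipopolysaccharide (LPS), a bacterial cell wall component that injures and inflames the lung. The lungs were taken on day 4, after perfusion and lavage. There was no lung without LPS, so the values below compare genotypes within injured lungs.

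Vitronectin is a plasma and matrix glycoprotein that binds cells through αv integrins and also binds the urokinase receptor. Tissue factor starts coagulation by binding factor VII, and tissue factor pathway inhibitor and thrombomodulin restrain it, the first at the tissue factor complex and the second by turning thrombin towards the activation of protein C. Tissue plasminogen activator and urokinase turn plasminogen into plasmin, which dissolves fibrin. In the injured lung, leaked plasma meets tissue factor on epithelial cells and macrophages, and fibrin is laid down in the air spaces.

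Library totals ran from 991646 to 994430 TPM, and 21380 to 24138 genes were above 0. TPM values do not keep the number of reads, so the depth of each library is unknown. Il10 itself was between 0 and 0.88 TPM in the 12 lungs, which is too low in whole lung to check the deletion. The summed TPM of 6 B cell markers was 773 to 31029 in IL-10 B-WT and 4.92 to 281 in knockout lungs. IL-10 B-WT replicate 1 stood apart from the other IL-10 B-WT lungs, with 2820 TPM of 10 monocyte and macrophage markers against 205 to 1180 in the other 5. Differences between genotypes are therefore given with and without it where it matters. All correlations below include it, except those within the knockouts. The labels give no litter or batch, and p-values between genotypes set the difference against the spread between these lungs.

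None of the 9 genes was called changed between the genotypes, and Vtn came closest. A gene was called when limma gave a Benjamini-Hochberg adjusted p of at most 0.05 over the 15148 genes tested and the log2 fold change was at least 1 in size. By this rule 0 of 9 members were called, where 0.495% of all genes tested were. With no minimum fold change the count was again 0 of 9, beside 0.522% of all genes. At an unadjusted p of at most 0.05, 1 of 9 members (Vtn) had a lower level in the knockouts, beside 5.71% of all genes, and 0 of 9 were higher, beside 6.83%. The genotypes did not overlap for 0 of 9 members, beside 1.02% of all genes. The median log2 fold change of the 9 members was 0.51. Of the 9, 3 were below 0 and 6 above 0, where 63.2% of all genes tested were above 0. The median of all genes was 0.099. Quantile normalization brought the median of all genes to 0.0054, so differences of this size depend on the scaling.

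**Figure D1:**
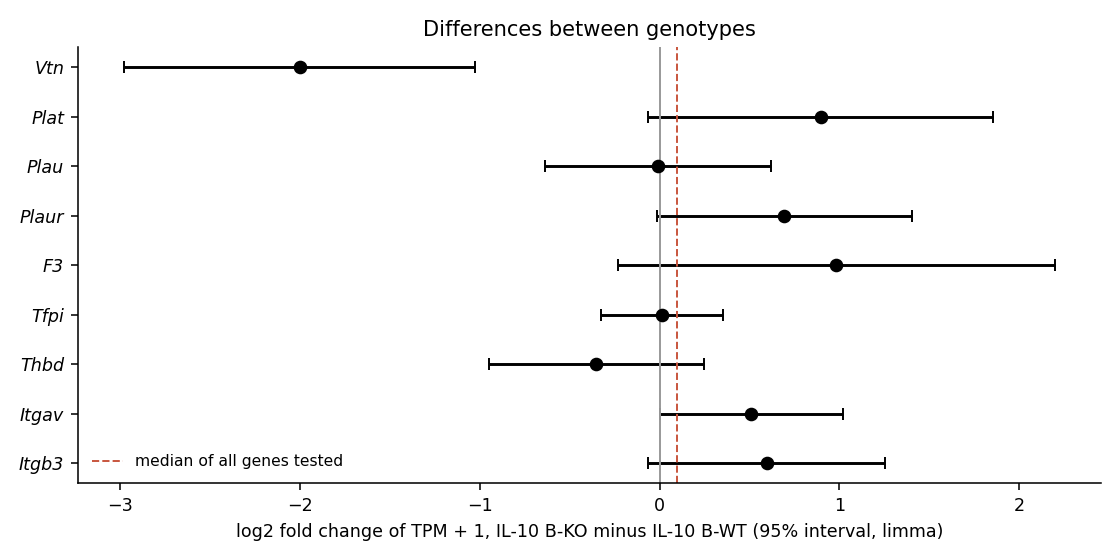
The log2 fold change of TPM + 1 (horizontal axis, IL-10 B-KO minus IL-10 B-WT, n = 6 lungs each) of the 9 genes, with the 95% interval from limma as the bar and the median of all genes tested as a dashed line. The interval of Vtn, -2.98 to -1.03, lies wholly below 0, and those of the other 8 genes reach or cross 0.

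Vtn was the most different of the 9 genes, with a mean of 28.2 ± 14.2 TPM (SD, n = 6) among IL-10 B-WT lungs and 6.03 ± 3.50 TPM (SD, n = 6) in knockout lungs. Across IL-10 B-WT replicates 1 to 6 it was at 6.48, 27.61, 17.12, 36.70, 44.22 and 37.22 TPM. Across the knockouts, replicates 1 to 6, it was at 6.96, 8.07, 4.81, 11.39, 3.04 and 1.90 TPM. Thus 5 of the 6 IL-10 B-WT lungs lay above every knockout lung, and IL-10 B-WT replicate 1 lay within the knockout range. The mean in IL-10 B-KO was 0.214 times that in IL-10 B-WT. The log2 fold change was -2.00 (SE 0.45, 95% interval -2.98 to -1.03), with a limma adjusted p of 0.0796 and an exact two-sided permutation p of 0.00866. Without IL-10 B-WT replicate 1 the log2 fold change was -2.35, the limma adjusted p was 0.00717 and Vtn was called, where 3.99% of all genes were called in that setting. The call of Vtn therefore turned on that lung, as did calls over the whole table (75 genes with it and 604 without it). Vtn lies at chr11:78499091-78502324 on the plus strand of GRCm38, and no other annotated gene overlaps it. Pooled over all its transcripts in GENCODE it has 13 distinct exon intervals, which is not the exon count of a single transcript.

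**Figure D2:**
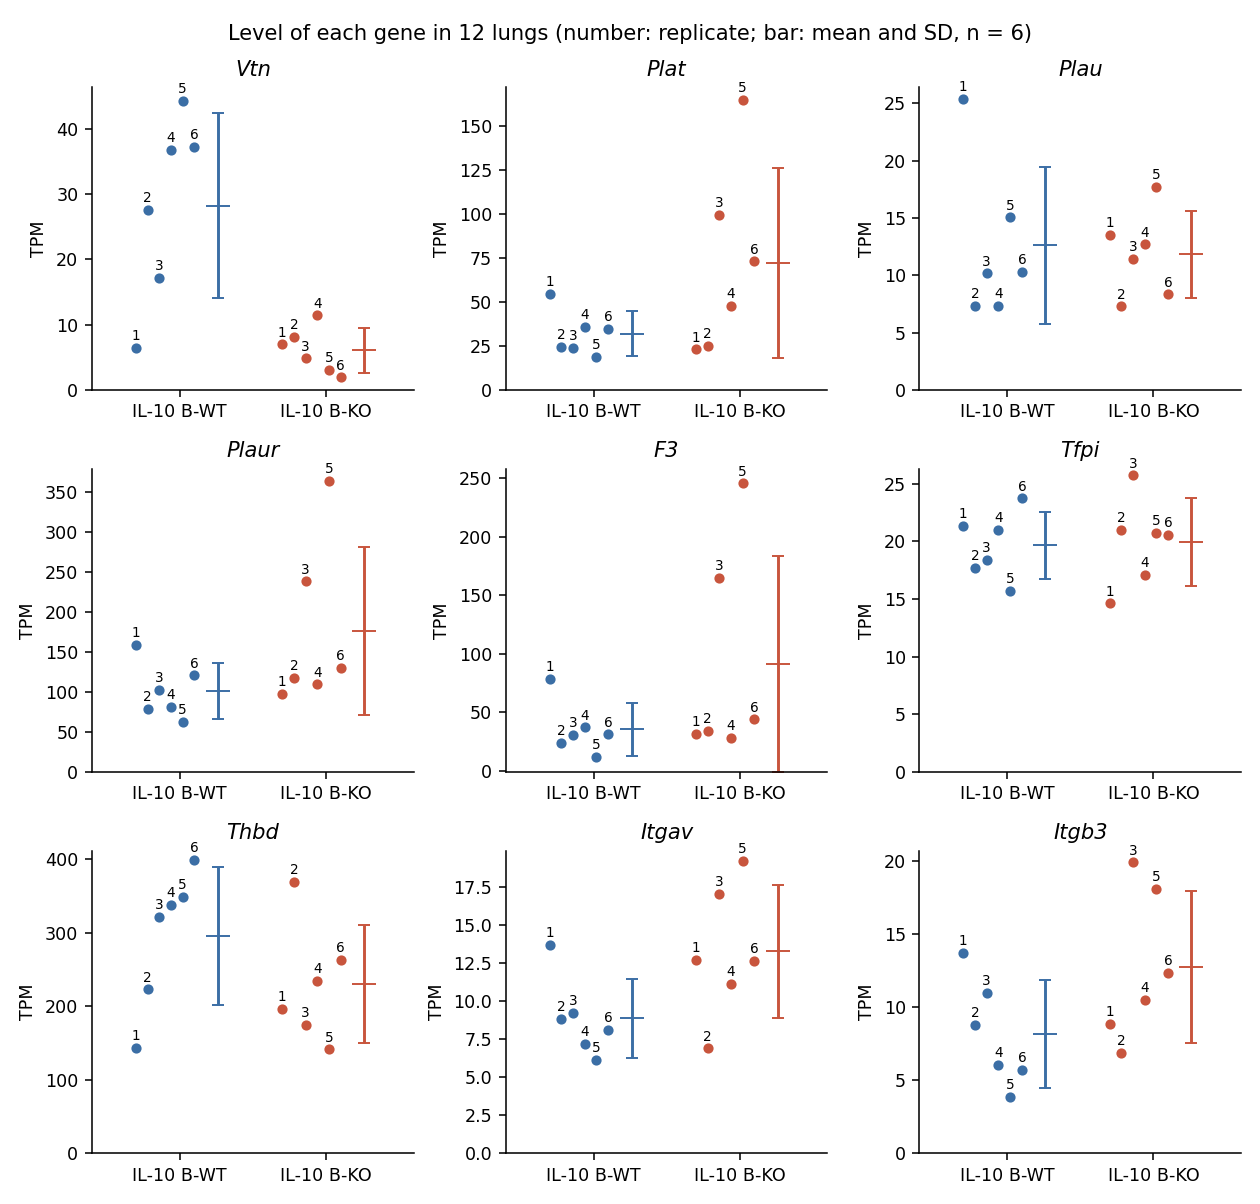
TPM (vertical axes, from 0, and just below it for the error bar of F3) of the 9 genes in the 6 IL-10 B-WT and 6 knockout lungs, with the replicate number at each point and the mean and SD beside the points. Vtn is between 1.90 and 11.39 TPM in knockout lungs and between 17.12 and 44.22 TPM in 5 IL-10 B-WT lungs. For F3, Plaur and Plat the highest values are in IL-10 B-KO replicates 5 and 3.

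Pericyte markers had lower levels in the knockouts as well. Pericytes are the contractile support cells of small vessels. All 10 markers of the list had a log2 fold change below 0 (median -1.23), where 63.2% of all genes tested were above 0. Of the 10, 3 were called lower (Pdgfrb, Notch3 and Trpc6), where 0.495% of all genes were called. The summed level of the 10 markers was 262 to 662 TPM among IL-10 B-WT lungs and 87.0 to 311 TPM in knockout lungs. By this sum 5 knockout lungs lay below every IL-10 B-WT lung. No marker of the list was at 0 in any lung. Per 100 TPM of these markers in the same lung, Vtn was at 5.62 to 7.31 TPM among IL-10 B-WT replicates 2 to 6, at 2.47 TPM for replicate 1 of that genotype and at 2.18 to 4.44 TPM in knockout lungs. Over each marker taken singly, Vtn in those 5 lungs was above every knockout lung for 4 of the 10 markers (Pdgfrb, Cspg4, Higd1b and Cox4i2) and overlapped the knockouts for the other 6, so the order of the lungs depended on the marker chosen. The part of pericyte RNA in the Vtn difference was not tested. In whole lung, fewer cells of a type and less RNA per cell cannot be told apart.

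**Figure D3:**
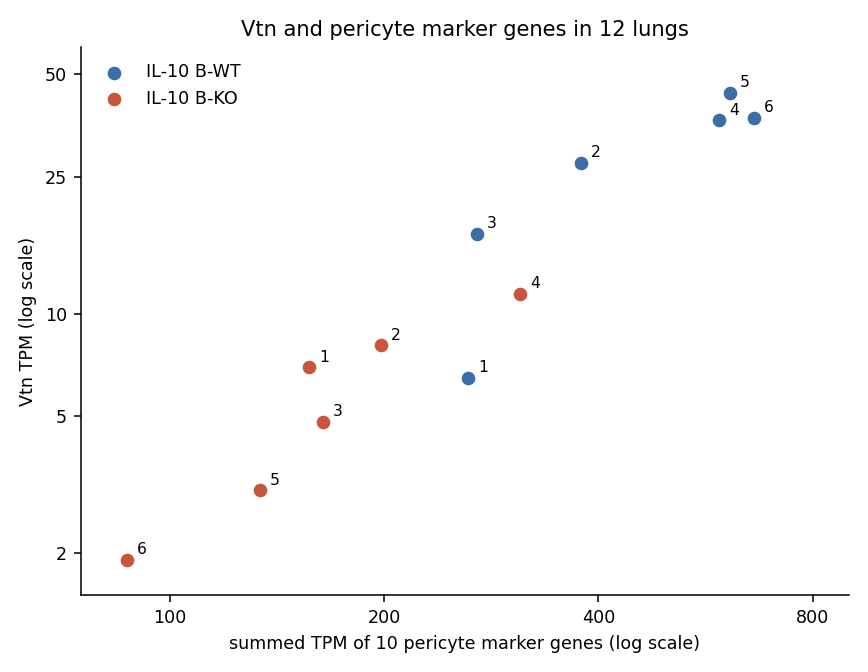
Vtn TPM (vertical axis, log scale) against the summed TPM of 10 pericyte markers (horizontal axis, log scale) in each lung, with the replicate number at each point. IL-10 B-KO replicate 6 is lowest on both axes (86.97 and 1.90 TPM), and IL-10 B-WT replicate 1 lies below the other IL-10 B-WT lungs on both.

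Vitronectin in plasma comes mainly from hepatocytes, whose markers were low in these lungs. The summed level of 8 hepatocyte markers was 8.26 to 26.2 TPM among IL-10 B-WT lungs and 8.87 to 14.1 TPM in knockout lungs, and 4 of the 8 passed the filter on low values. Among the 5 genes whose log2 levels followed Vtn most closely over the 12 lungs were Ecm2 (Pearson r = 0.98), Reck (0.97), Adra1d (0.97) and Gucy1a1 (0.97). Reck is a membrane-anchored inhibitor of matrix metalloproteinases, Adra1d an adrenergic receptor and Gucy1a1 a subunit of soluble guanylate cyclase. With the genotype means removed the 5 closest genes were Ecm2 (0.95), Adamtsl3 (0.94), Gucy1a1 (0.93), Reck (0.93) and Abca8b (0.92). Ecm2, Reck and Gucy1a1 were thus among the 5 closest by both measures. Of the pericyte markers, Cox4i2 ranked 17, Ndufa4l2 23 and Notch3 43 among the 15147 other genes, and Kcnj8 (-0.03) and Rgs5 (0.03) did not follow Vtn. These are descriptions over 12 lungs that share the genotype difference.

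Tissue factor and the urokinase receptor varied together from lung to lung, and neither was called between the genotypes. F3 was at 78.39, 24.10, 31.01, 37.19, 12.23 and 31.11 TPM across IL-10 B-WT replicates 1 to 6. Across the knockouts, replicates 1 to 6, it was at 31.37, 34.42, 164.42, 28.15, 245.33 and 44.03 TPM. IL-10 B-KO replicates 3 and 5 lay above every IL-10 B-WT lung, while the other 4 lay within the IL-10 B-WT range. The means were 35.7 ± 22.6 TPM among IL-10 B-WT lungs and 91.3 ± 91.8 TPM in the knockouts (SD, n = 6 each), and the log2 fold change was 0.98 (SE 0.56, 95% interval -0.23 to 2.20, limma adjusted p = 0.474, exact permutation p = 0.165). The difference was smaller than the spread among IL-10 B-KO lungs on the TPM scale. Without IL-10 B-KO replicate 5 it was 0.59 (limma adjusted p = 0.769). The gene lies at chr3:121723537-121735048 on the plus strand.

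Plaur, which holds urokinase at the cell surface, was at 159.07, 78.70, 102.04, 80.86, 61.87 and 120.60 TPM across IL-10 B-WT replicates 1 to 6. It was at 97.37, 117.62, 238.32, 109.38, 364.18 and 129.95 TPM across the knockouts, replicates 1 to 6. The gene lies at chr7:24462484-24475968 on the plus strand. The same lungs as for F3, IL-10 B-KO replicates 3 and 5, were above every IL-10 B-WT lung. The means were 101 ± 35.2 TPM and 176 ± 105 TPM (SD, n = 6 each), with a log2 fold change of 0.69 (SE 0.33, 95% interval -0.02 to 1.40, limma adjusted p = 0.408, exact permutation p = 0.0887). Without IL-10 B-KO replicate 5 it was 0.45, and without IL-10 B-WT replicate 1 it was 0.84 (limma adjusted p = 0.137).

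F3 and Plaur had a Pearson r of 0.961 over the 12 lungs (Spearman's rho = 0.832). The permutation p of r was 1e-05, the smallest that 100000 resamples can give, and that of rho was 0.00141. Adjusted over 36 pairs of members by Benjamini-Hochberg they were 0.00036 and 0.00927. Without IL-10 B-KO replicates 3 and 5, the lungs farthest from the median, r was 0.858. Within IL-10 B-WT r was 0.878 and within the knockouts it was 0.986, so the relation was seen in each genotype, although neither passed adjustment over the 36 pairs (exact permutation, adjusted p = 0.167 and 0.075). Plaur was the closest of all 15147 genes to F3, and F3 was next to Nos3 in the order for Plaur (r = 0.96), the endothelial nitric oxide synthase.

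The sequences just upstream of F3 and Plaur are shown as a description. Whether any letters in them relate to the correlation of F3 and Plaur was not tested. Of the 9 genes, 5 had an entry among the RefSeq promoters of GRCm38.p6 (F3, Plaur, Vtn, Itgav and Tfpi, with 6 windows). The 250 bases upstream of the RefSeq start are given for F3, chr3:121723287-121723536, and Plaur, chr7:24462233-24462482, both on the plus strand and 5′ to 3′, with the AP-1 motif in capitals. AP-1 is the Fos and Jun transcription factor pair.
F3: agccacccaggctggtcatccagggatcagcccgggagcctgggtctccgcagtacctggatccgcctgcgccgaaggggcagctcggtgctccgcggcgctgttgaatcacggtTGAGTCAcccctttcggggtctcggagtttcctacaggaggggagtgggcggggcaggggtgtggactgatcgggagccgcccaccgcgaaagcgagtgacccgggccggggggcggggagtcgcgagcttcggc
Plaur: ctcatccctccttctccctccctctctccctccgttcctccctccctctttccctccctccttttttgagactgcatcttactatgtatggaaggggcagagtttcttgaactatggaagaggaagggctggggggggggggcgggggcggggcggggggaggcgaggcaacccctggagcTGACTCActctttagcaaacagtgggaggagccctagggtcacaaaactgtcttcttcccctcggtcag

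The AP-1 letters TGAGTCA, sought on both strands, stood at -135 to -129 from the RefSeq start of F3 and, as the reverse complement TGACTCA, at -69 to -63 from that of Plaur. They were found in 4.46% of the 32851 RefSeq windows of this length, and not in the windows of Vtn, Itgav and Tfpi. The GC box GGGCGG, also on both strands, had 3 matches in each of F3 and Plaur, 1 in each of the 2 Tfpi windows, none in Vtn or Itgav, and a match in 32.7% of all windows. The cyclic AMP element TGACGTCA (1.55% of windows) occurred in none of the 6 windows. The TATA box TATAAA was found in a Tfpi window and in Vtn, where both of its matches overlap on opposite strands, and in 12.4% of all windows. These matches describe letters, not bound sites.

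The plasminogen activators, Plat at chr8:22757727-22782844 and Plau at chr14:20836660-20843385, both on the plus strand, differed from each other in how they varied. Plat was at 54.70, 24.25, 23.79, 35.93, 18.57 and 34.54 TPM across IL-10 B-WT replicates 1 to 6. It was at 22.99, 24.82, 99.39, 47.55, 164.78 and 73.05 TPM across the knockouts, replicates 1 to 6. Replicates 3, 5 and 6 of IL-10 B-KO lay above every IL-10 B-WT lung and replicates 1 and 2 near the low end of that range. The means were 32.0 ± 13 TPM and 72.1 ± 54.0 TPM (SD, n = 6 each), with a log2 fold change of 0.90 (SE 0.44, 95% interval -0.06 to 1.85, limma adjusted p = 0.427, exact permutation p = 0.115). Without IL-10 B-KO replicate 5 it was 0.59. Over the 12 lungs the level of Plat followed those of Plaur (r = 0.905, permutation p = 6e-05, adjusted 0.00072, and rho = 0.853, permutation p = 0.0008, adjusted 0.0072) and F3 (r = 0.903, permutation p = 8e-05, adjusted 0.00072, and rho = 0.811, permutation p = 0.00202, adjusted 0.00927). Without IL-10 B-KO replicates 3 and 5 r was 0.703 and 0.701. The gene closest to Plat by both measures was Srgn (r = 0.97), the proteoglycan of secretory granules in blood cells and endothelium.

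Plau was at 25.41, 7.30, 10.15, 7.35, 15.04 and 10.30 TPM across IL-10 B-WT replicates 1 to 6, beside 13.51, 7.28, 11.42, 12.68, 17.70 and 8.32 TPM across the knockouts, replicates 1 to 6. Of the 6 IL-10 B-KO values 5 lay within the IL-10 B-WT range, whose highest lung was replicate 1. The log2 fold change was -0.01 (SE 0.29, 95% interval -0.64 to 0.62, limma adjusted p = 0.992), and it was 0.21 without IL-10 B-WT replicate 1, so no direction can be given. No pair of Plau with another member passed adjustment by both r and rho. The closest genes to Plau were Ctdnep1 (r = 0.90), Ube2l6 (0.89), Tlr3 (0.88), Apol6 (0.85) and Tapbp (0.84). Tlr3 is a receptor for double-stranded RNA and Tapbp serves the loading of MHC class I.

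Plasminogen itself (Plg), the substrate of both activators, is made in the liver and was at most 0.29 TPM in every lung.

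**Figure D4:**
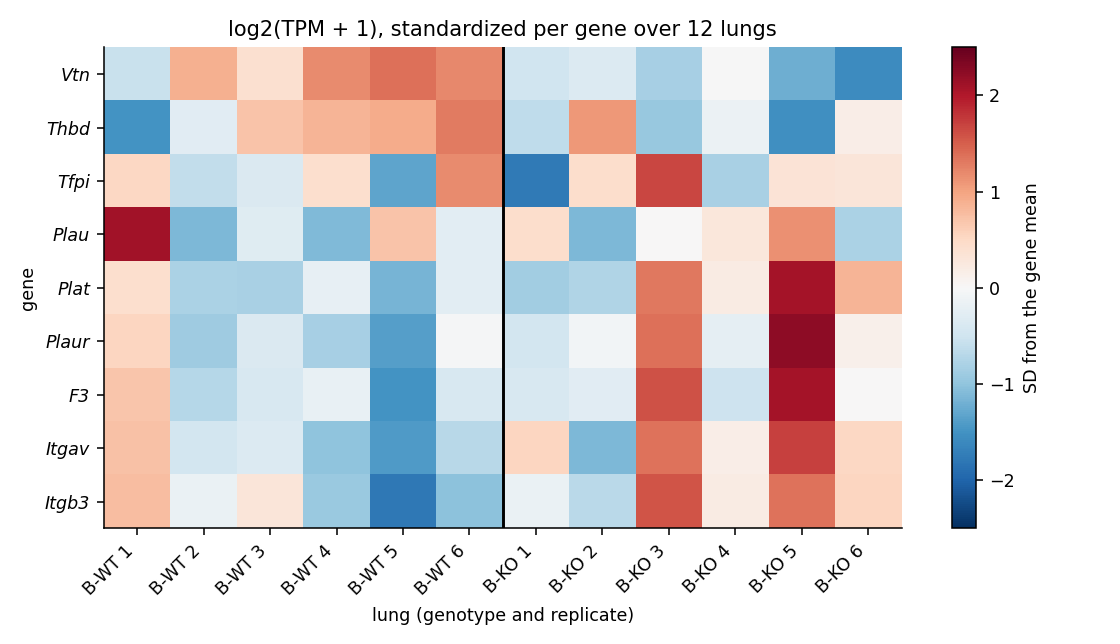
Level of the 9 genes (rows) in the 12 lungs (columns), as log2(TPM + 1) standardized per gene, in SD from the gene mean over the 12 lungs. IL-10 B-KO replicates 3 and 5 are above the mean for Plat, Plaur, F3, Itgav and Itgb3, and below it for Vtn and Thbd. IL-10 B-WT replicate 1 has the same signs.

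Thbd, a gene of 1 exon at chr2:148404466-148408188 on the minus strand, was the most abundant of the 9 in both genotypes. It was at 143.63, 222.81, 321.68, 338.06, 348.20 and 398.29 TPM across IL-10 B-WT replicates 1 to 6, beside 196.35, 368.71, 174.89, 234.68, 141.33 and 263.09 TPM across the knockouts, replicates 1 to 6. The groups overlapped over nearly their whole range, and the lowest lungs were IL-10 B-KO replicate 5 and IL-10 B-WT replicate 1. The means were 295 ± 94.0 TPM and 230 ± 80.5 TPM (SD, n = 6 each), with a log2 fold change of -0.35 (SE 0.28, 95% interval -0.95 to 0.25, limma adjusted p = 0.581, exact permutation p = 0.255). All 10 endothelial markers had log2 fold changes below 0, none called and 2 with an unadjusted p of at most 0.05. Of all genes tested, 63.2% were above 0, 5.71% were lower at that p and 0.495% were called. The summed level of the 10 endothelial markers was 2130 to 4685 TPM among IL-10 B-WT lungs and 2194 to 4066 TPM in knockout lungs. IL-10 B-WT replicate 1 had the lowest of these sums, and the part of endothelial RNA in the Thbd values was not tested. The genes closest to Thbd with the genotype means removed were Afap1l1 (r = 0.98), Slc9a3r2 (0.97), Tspan18 (0.97), Ripply3 (0.97) and Nova2 (0.96).

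Tfpi, at chr2:84432855-84476775 on the minus strand, varied least of the 9 genes, with a coefficient of variation of 14.8% in IL-10 B-WT and 19.1% in knockout lungs. Its TPM values were 21.35, 17.71, 18.42, 20.99, 15.73 and 23.75 across IL-10 B-WT replicates 1 to 6 and 14.61, 21.02, 25.74, 17.10, 20.74 and 20.60 in knockout replicates 1 to 6. The groups overlapped, and the log2 fold change was 0.01 (SE 0.16, 95% interval -0.33 to 0.35, limma adjusted p = 0.978), with a sign that changed under other scalings. That interval is the narrowest of the 9. Tfpi was closest to Scoc (r = 0.94) and Rsu1 (0.91). Within a lung the ratio of F3 to Tfpi, the initiator over its inhibitor, was 0.777 to 3.67 in IL-10 B-WT (median 1.52) and 1.64 to 11.8 in knockout lungs (median 2.14). For F3 to Thbd the medians were 0.102 and 0.164, and for Plaur to Plau 10.4 and 15.9. None of the 6 ratios tested, 4 of which are given here, passed adjustment between genotypes (exact permutation tests, lowest adjusted p = 0.227 over the 6).

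The integrin subunits αv and β3, which pair as the vitronectin receptor, had levels close to each other. Itgav was at 13.65, 8.82, 9.23, 7.16, 6.12 and 8.10 TPM across IL-10 B-WT replicates 1 to 6, beside 12.67, 6.89, 17.00, 11.13, 19.20 and 12.62 TPM across the knockouts, replicates 1 to 6. Itgb3 was at 13.70, 8.76, 10.98, 6.05, 3.84 and 5.72 TPM and at 8.83, 6.85, 19.88, 10.47, 18.06 and 12.33 TPM in the same order. For both genes IL-10 B-KO replicates 3 and 5 were above every IL-10 B-WT lung, and the groups overlapped otherwise. The log2 fold change was 0.51 for Itgav (SE 0.24, 95% interval -0.00032 to 1.02, limma adjusted p = 0.399, exact permutation p = 0.0693). For Itgb3 it was 0.60 (SE 0.31, 95% interval -0.06 to 1.25, limma adjusted p = 0.441, exact permutation p = 0.102). Without IL-10 B-WT replicate 1 the values were 0.63 and 0.75 (limma adjusted p = 0.115 and 0.141).

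The ratio of Itgav to Itgb3 was 0.841 to 1.59 in IL-10 B-WT and 0.855 to 1.43 in knockout lungs. Their correlation over the 12 lungs was r = 0.928 (permutation p = 2e-05, adjusted 0.00036) and rho = 0.916 (permutation p = 7e-05, adjusted 0.00252). By r it was 0.873 without the 2 farthest lungs, 0.927 within IL-10 B-WT and 0.914 within the knockouts. Of all other genes, 2.34% had a higher r with Itgav than Itgb3 had. Likewise 3.29% had a higher r with Itgb3 than Itgav had. The β3 subunit also pairs with Itga2b on platelets, whose mean was 10.7 ± 4.36 TPM among IL-10 B-WT lungs and 11.2 ± 3.32 TPM in knockout lungs (SD, n = 6 each; log2 fold change 0.10). The summed level of 10 platelet markers was 87.5 to 194 TPM and 87.1 to 257 TPM, with 0 of the 9 that passed the filter at an unadjusted p of at most 0.05. Of all genes tested, 5.71% were lower and 6.83% higher at that p. Among the 5 genes closest to Itgb3 were Fgd4 (r = 0.99), Chp1 (0.99), Nus1 (0.98) and Adam9 (0.98), and Itgav was closest to Gpr35 (0.98). Itgav lies at chr2:83724397-83806916 and Itgb3 at chr11:104608000-104670476, both on the plus strand. Itgav shares exon bases with the opposite-strand transcript Gm13684. Whether counting used strand is not given in the sources used here, so reads of this pair may not be told apart.

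Vtn went against the integrin subunits over the 12 lungs. Its r with Itgav was -0.804 (permutation p = 0.0024, adjusted 0.00617) and rho -0.818 (permutation p = 0.00206, adjusted 0.00927). With Itgb3 they were -0.798 (permutation p = 0.00212, adjusted 0.00587) and -0.867 (permutation p = 0.00049, adjusted 0.00588). Without the 2 farthest lungs, IL-10 B-WT replicate 5 and knockout replicate 6, r was -0.805 and -0.786. Within IL-10 B-WT r was -0.958 and -0.911 (exact permutation, adjusted p = 0.05 for both), and within the knockouts -0.533 and -0.550 (exact permutation, adjusted p = 0.367 for both). Many genes went against Vtn in this way. Of the 15147 other genes, 961 (6.34%) had a more negative r with Vtn than Itgav had and 1055 (6.97%) than Itgb3 had. The neutrophil marker S100a8 (-0.90) and the macrophage marker Cd68 (-0.88), picked after their values were seen, were among them. Thbd went against Itgav likewise (r = -0.882, permutation p = 0.00022, adjusted 0.00118, and rho = -0.895, permutation p = 0.00015, adjusted 0.0027), with r of -0.841 within IL-10 B-WT and -0.953 within the knockouts. Of the 36 pairs of members, 22 passed adjustment by r, 11 positive and 11 negative, and 18 passed by both r and rho. For several of these pairs many other genes were as close. For Itgav, 11.6% of all other genes had a higher r than Plaur and 13.4% a higher r than Plat, while for F3 the share above Plat was 0.713%. Within IL-10 B-WT alone 4 pairs passed by r and within the knockouts alone 0 did.

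Inflammatory cell markers followed this pattern in part. All 9 neutrophil markers and all 10 monocyte and macrophage markers had log2 fold changes above 0 with an unadjusted p of at most 0.05, and none was called. Of all genes tested, 63.2% were above 0, 6.83% were higher at that p and 0.495% were called. The neutrophil sum was 289 to 2574 TPM among IL-10 B-WT lungs and 1058 to 7750 TPM in knockout lungs. The monocyte and macrophage sum was 205 to 2820 TPM and 475 to 3691 TPM. No marker of either list was at 0 in any lung. IL-10 B-WT replicate 1 had the highest of both sums in its genotype, and knockout replicates 3 and 5, where F3, Plaur, Plat, Itgav and Itgb3 were highest, had the highest monocyte and macrophage sums. Knockout replicate 6 had a neutrophil sum of 5109 TPM, above the 4562 TPM of replicate 3. In knockout replicate 6 the levels of F3, Plaur, Itgav and Itgb3 lay within the IL-10 B-WT range. Plat in that lung (73.05 TPM) lay above every IL-10 B-WT lung (highest 54.70 TPM). For F3, 18.8% of all other genes had a higher r than Cd68 and 3.45% a higher r than S100a8. For Plaur the shares were 13.2% and 2.15%, and for Plat 8.96% and 0.231%. For Itgav they were 1.77% and 6.03%, and for Itgb3 7.59% and 8.05%. The part of these cells in the levels of the 9 genes was not tested.

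In order of level, IL-10 B-WT lungs had Thbd first (mean 295 TPM), followed by Plaur (101), F3 (35.7), Plat (32.0), Vtn (28.2), Tfpi (19.7), Plau (12.6), Itgav (8.85) and Itgb3 (8.18). IL-10 B-KO lungs had Thbd (230 TPM), Plaur (176), F3 (91.3), Plat (72.1), Tfpi (20.0), Itgav (13.3), Itgb3 (12.7), Plau (11.8) and Vtn (6.03). Vtn was the fifth of the 9 in IL-10 B-WT and the last in the knockouts. Plaur was above F3 in 6 of 6 lungs of each genotype, and in IL-10 B-KO Plat was above Tfpi, and Tfpi above Itgav, in 6 of 6 lungs. No neighbours in either order passed an exact paired permutation test after adjustment over the 8 steps. The smallest p that 6 lungs allow is 0.03125, and the lowest adjusted p were 0.25 in IL-10 B-WT and 0.0833 in the knockouts.

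Around the 9 genes, 58 others of coagulation, anticoagulation, fibrinolysis, thrombin signalling and the integrin and matrix partners of vitronectin were examined. Of these, 36 passed the filter on low values, and 0 were called (0.495% of all genes tested). A single one, F2r, passed the adjusted p alone (0.522% of all genes). At an unadjusted p of at most 0.05, 4 of the 36 were lower (5.71% of all genes) and 7 higher (6.83%). The genotypes did not overlap for 2, F2r and Mfge8 (1.02% of all genes). The median log2 fold change of the 36 was 0.31. Without IL-10 B-WT replicate 1 the called genes were 6 (F7, F10, F13a1 and Procr higher, Itga8 and Mfge8 lower), where 3.99% of all genes were called.

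**Figure D5:**
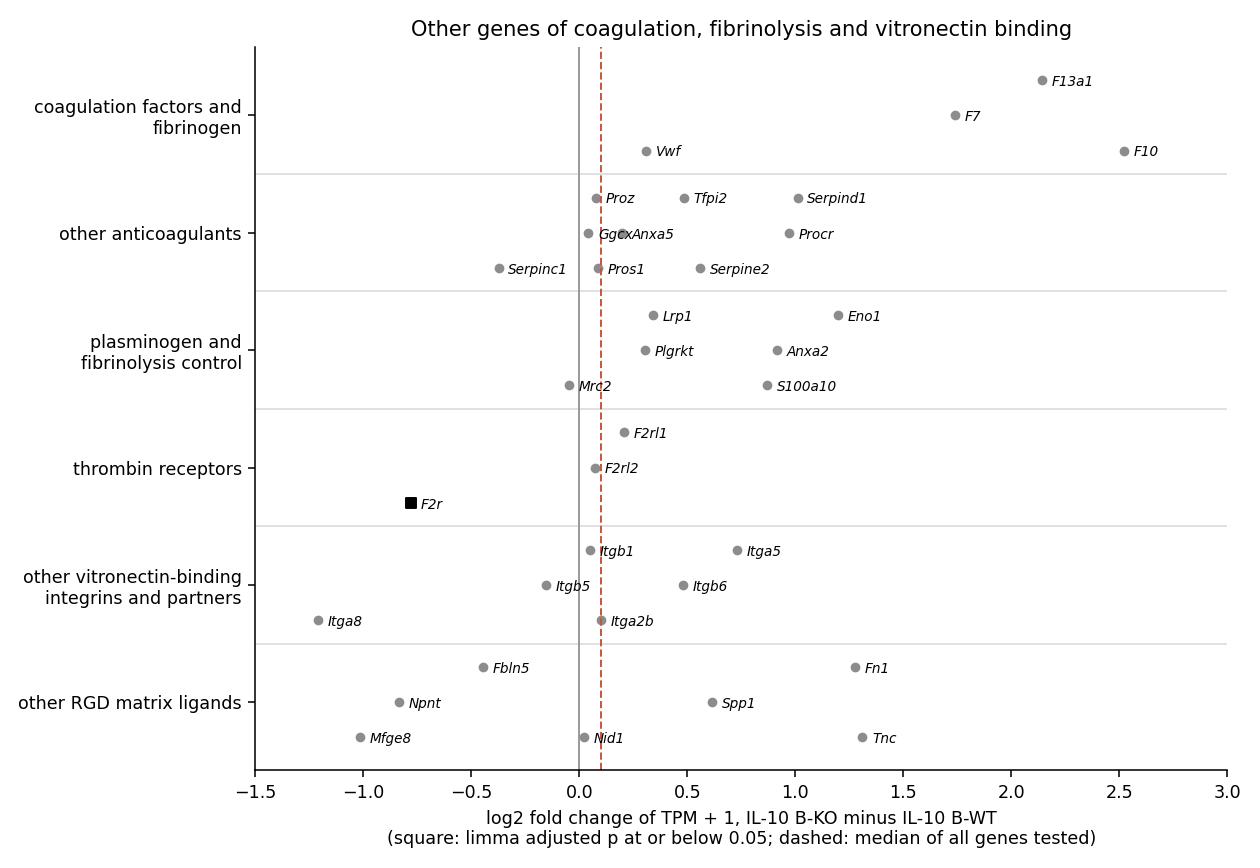
Log2 fold change of TPM + 1 (horizontal axis, IL-10 B-KO minus IL-10 B-WT, n = 6 lungs each) of 35 of the 36 genes past the filter, by list (vertical axis), with the median of all genes tested as a dashed line. F7, F10 and F13a1 lie between 1.74 and 2.52, and F2r, the square at -0.78, is the only gene of the 35 with a limma adjusted p of at most 0.05.

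F2r encodes the main thrombin receptor, PAR1. It was at 67.14 to 87.67 TPM among IL-10 B-WT lungs (mean 79.1 ± 6.97 TPM, SD, n = 6) and at 37.59 to 54.13 TPM in knockout lungs (mean 45.9 ± 6.18 TPM, SD, n = 6). The genotypes did not overlap, IL-10 B-WT replicate 1 (76.55 TPM) included. The log2 fold change was -0.78 (SE 0.13, limma adjusted p = 0.0201), which did not reach the size required for a call. The adjusted p rose to between 0.051 and 0.06 when IL-10 B-WT replicate 4 or 6 or knockout replicate 1, 5 or 6 was left out. F2rl1 and F2rl2 had log2 fold changes of 0.21 and 0.07.

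Of 16 coagulation factor and fibrinogen genes, 12 did not pass the filter. The 3 fibrinogen genes Fga, Fgb and Fgg were at most 1.23 TPM in every lung, F2 (prothrombin) at most 0.63 TPM and F5 at most 1.18 TPM. The remaining 4 genes all had log2 fold changes above 0, as did 63.2% of all genes tested. F7, the partner of tissue factor, was at 0.98 to 35.92 TPM among IL-10 B-WT lungs (median 7.08) and at 15.37 to 43.59 TPM in knockout lungs (median 24.4), with a log2 fold change of 1.74 (SE 0.55, limma adjusted p = 0.259). F10, its substrate, was at 1.01 to 138.52 TPM and 7.09 to 111.3 TPM (log2 fold change 2.52, SE 0.93, limma adjusted p = 0.328). F13a1, the fibrin cross-linking subunit also made by macrophages, was at 3.91 to 22.05 TPM and 5.5 to 130.1 TPM (2.14, SE 0.62, limma adjusted p = 0.199). The highest IL-10 B-WT value of all 3 was in replicate 1, and leaving it out gave log2 fold changes of 2.18, 3.31 and 2.44 (limma adjusted p of 0.025, 0.0262 and 0.0422). Vwf, the platelet-binding factor of endothelium, was at 284 ± 94.1 TPM and 346 ± 102 TPM (0.31, limma adjusted p = 0.618).

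Of 13 other anticoagulant genes 9 passed the filter and none was called. Procr, the endothelial receptor of protein C, was at 3.58 to 40.33 TPM among IL-10 B-WT lungs and 5.57 to 36.14 TPM in knockout lungs (log2 fold change 0.97, limma adjusted p = 0.443). Without IL-10 B-WT replicate 1, its highest IL-10 B-WT lung, the difference was 1.39 with a limma adjusted p of 0.0495. Serpind1 (heparin cofactor II) was low, with means of 0.822 and 3.07 TPM (1.01, limma adjusted p = 0.298), and Serpinc1 (antithrombin) likewise, with 1.83 and 1.19 TPM (-0.37, limma adjusted p = 0.404). Pros1, protein S, was at 36.9 ± 5.07 and 39.6 ± 8.72 TPM (0.09), and Ggcx, the vitamin K-dependent carboxylase, at 14.7 and 15.2 TPM (0.04). Proc, protein C, did not pass the filter and was at most 2.38 TPM.

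Of 11 genes of plasminogen and its control, 7 passed the filter and none was called. Of the 7, 6 had a log2 fold change above 0, beside 63.2% of all genes tested. The plasminogen receptors had the highest values, Eno1 with 1.20 (means 179 and 391 TPM, limma adjusted p = 0.353) and Anxa2 with 0.92 (483 and 874 TPM, limma adjusted p = 0.328). S100a10, the partner of Anxa2, is in the list too but was picked for naming after its values were seen. It had 0.87 (232 and 432 TPM, limma adjusted p = 0.268). The plasminogen receptor Plgrkt had 0.30 and Mrc2, which binds the urokinase receptor complex, -0.05.

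Among other integrin subunits that bind vitronectin or pair with αv, Itgb5 was at 81.1 ± 10.4 TPM among IL-10 B-WT lungs and 73.8 ± 16.6 TPM in knockout lungs (log2 fold change -0.15, limma adjusted p = 0.694). Its IL-10 B-WT mean stood beside 8.18 TPM for Itgb3. Itgb6, the epithelial partner of αv, had 0.48 (limma adjusted p = 0.64), and Itgb8 was at most 0.68 TPM. Itga5, the fibronectin receptor subunit, had 0.73 (limma adjusted p = 0.446). Itga8 was at 7.44 to 21.75 TPM and 3.21 to 10.41 TPM, with a log2 fold change of -1.21 (SE 0.30, limma adjusted p = 0.111), and -1.38 without IL-10 B-WT replicate 1 (limma adjusted p = 0.0256).

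Of the 7 other matrix ligands with the RGD integrin motif, 3 had log2 fold changes below 0 and 4 above 0 (median 0.02), and 2, Mfge8 and Npnt, were lower at an unadjusted p of at most 0.05. Mfge8 was at 185.68 to 508.41 TPM among IL-10 B-WT lungs and 99.99 to 177.45 TPM in knockout lungs, without overlap, and its log2 fold change was -1.02 (SE 0.23, limma adjusted p = 0.0796, exact permutation p = 0.00216, the smallest that 6 against 6 allow). Npnt, nephronectin, the ligand of α8β1, was at 32.42 to 104.01 TPM and 23.36 to 49.91 TPM (-0.84, limma adjusted p = 0.28). Fbln5 and Nid1, named after their values were seen, had -0.45 (limma adjusted p = 0.512) and 0.02 (limma adjusted p = 0.979). Fn1 (1.28), Tnc (1.31) and Spp1 (0.61) had values above 0, with limma adjusted p of 0.503, 0.583 and 0.784 and a spread of many fold within each genotype. Spp1, osteopontin, was at 49.03 to 409.05 TPM among IL-10 B-WT lungs and 29.83 to 2411.63 TPM in knockout lungs.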

How the data were processed

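Whole-lung RNA from 12 mice was sequenced. The authors deposited TPM per gene. Their processing notes name fastp, HISAT, RSEM and the build GRCm38.p5, with versions not given in the sources used here. TPM keeps no read counts, so no count model was used and precision rests on the 6 lungs per genotype.

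Genes at 1 TPM or more in at least 6 lungs (15148 of 55414) were tested as log2(TPM + 1) by limma 3.58.1 (R 4.3.3) with a trended prior and Benjamini-Hochberg adjustment. Fold changes on this scale understate those of low genes. Single genes had exact two-sided permutation tests (924 arrangements, smallest p = 0.00216), and correlations used 100000 permutations (SciPy 1.17.1). The script was tested on simulated data. The members and lists were chosen with earlier results of these data known. Named genes were the 9 members, in each wider list any called gene and the 2 lowest and 2 highest log2 fold changes, and a set of key factors, with the 5 genes most like a member by Pearson r. Smooth muscle, fibroblast and alveolar epithelium markers are given in the closing section. Some named genes are not reported here. Coordinates came from GENCODE M21. Alternatives changed the pseudocount, filter, scaling or library weights, added a replicate block, or left out each lung.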

Additional observations from a re-analysis of the deposited data

Results flagged for a closer look

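A lung was singled out where its gap to the nearest lung of its genotype exceeded 0.625 of the genotype's whole range (Dixon's criterion at 6 samples). Over the 9 members and 35 of the wider genes past the filter, 16 of 88 groups met it. For independent, normally spread values about 1 in 20 would. Genes of the same lungs vary together, so the 88 groups are not independent and that rate is only a rough guide. No member was among the 16. IL-10 B-WT replicate 1 was the lung far above the others for 13 of the 16.

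For the coagulation genes its values were F7 35.92 TPM (next 12.47), F10 138.52 TPM (next 16.78), F13a1 22.05 TPM (next 7.50), Procr 40.33 TPM (next 8.86), Serpine2 163.14 TPM (next 41.92) and Tfpi2 8.91 TPM (next 3.57). For fibrinolysis they were Lrp1 388.93 TPM (next 196.18) and Eno1 469.92 TPM (next 175.21). For the integrins and matrix they were Itga5 90.55 TPM (next 38.03), Fn1 599.44 TPM (next 80.98), Spp1 409.05 TPM (next 152.86), Tnc 76.44 TPM (next 6.37) and Nid1 50.67 TPM (next 36.76).

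Mfge8 was at 508.41 TPM in IL-10 B-WT replicate 2, with the next lung of that genotype at 304.96 TPM. In IL-10 B-KO lungs, Proz was at 7.08 TPM in replicate 1 (next 2.75 TPM) and Spp1 at 2411.63 TPM in replicate 3 (next 685.23 TPM).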

How the results depend on the processing

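The count of members called stayed at 0 except for 1 (Vtn) with array quality weights, 1 at an unadjusted p of at most 0.05, and a range of 0 to 1 when each lung was left out. The wider count was 5 with array quality weights, 11 at an unadjusted p, and 0 to 6 when each lung was left out (6 without IL-10 B-WT replicate 1, and F13a1 alone without knockout replicate 2). Vtn was lower in every alternative, at -2.20 to -1.98 (limma adjusted p 0.0229 to 0.223) and, with each lung left out, at -2.35 to -1.78 (0.00717 to 0.211); it passed with array quality weights (-1.98, adjusted p = 0.0229) and without IL-10 B-WT replicate 1. Plat, Plaur, F3, Thbd, Itgav and Itgb3 kept their signs and passed in none. Plau turned to 0.19 with array quality weights and ran from -0.13 to 0.21 with lungs left out. Tfpi turned to -0.039 without immunoglobulin genes, -0.089 by quantile normalization, -0.094 by median centring and -0.081 with weights, and ran from -0.061 to 0.094 with lungs left out. The cause was not tested.

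With the replicate block, Vtn stayed at -2.00 (adjusted p = 0.223) and F2r at -0.78 (adjusted p = 0.139), and 0 members were called. Replicates with the same number did not deviate together over all genes (correlations -0.29 to 0.046). This cannot exclude a shared litter or batch, which the labels do not give, so the block fit stands beside the main fit. The adjusted p of F2r was 0.0131 to 0.06 with lungs left out and missed the threshold in 5 of 12. Over all genes 75 were called, 45 with the replicate block, 6 with no filter, 92 with a pseudocount of 0.1, 28 without immunoglobulin genes, 39 by quantile normalization, 36 by median centring, 318 with weights, 604 leaving out IL-10 B-WT replicate 1, 116 leaving out knockout replicate 2, and 19 to 62 leaving out any other lung. The unknown depth limits what can be said of genes near 1 TPM.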

Other observations

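Of 6 smooth muscle markers all had log2 fold changes below 0 (median -0.90, 3 at an unadjusted p of at most 0.05, none called), with a summed level of 260 to 1065 TPM in IL-10 B-WT and 112 to 550 TPM in knockout lungs. Of all genes tested, 63.2% were above 0, 5.71% were lower at that p and 0.495% were called. Of 8 fibroblast markers 5 were below and 3 above 0 (median -0.16), with sums of 211 to 734 TPM and 110 to 973 TPM. Of 10 alveolar epithelium markers 4 were below and 6 above 0 (median 0.44), with sums of 3951 to 19629 TPM and 12595 to 22872 TPM.

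Some wider genes were too low to test. F8 was at 0.17 to 5.25 TPM in IL-10 B-WT and 0.21 to 1.07 TPM in knockout lungs. Serpinb2 was at 0 to 1.02 TPM and 0.06 to 13.92 TPM, with its highest value in IL-10 B-KO replicate 5, where F3 and Plaur were also highest. Kng1, a kininogen gene, was at 0.12 to 0.54 TPM and 0.19 to 3.97 TPM, again with its highest value in that lung. Serpina5 was listed at 0 in all 12 lungs.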
